A study of Mus musculus with 8 samples.

Results

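The Agilent mouse array carried 4449 non-control probes that the scanner files name by a stretch of the genome alone, as chromosome, start, end and an F or R strand on the mm9 build. These probes fell on 4061 intervals, an interval on F and the same interval on R being counted apart. An interval was kept if 1 of its probes exceeded background clearly, by the scanner software's own flag, on 4 or more of the 8 arrays, and the kept probe of highest mean stood for it. This left 1636 intervals among the 23105 features that were tested, of which 14127 had a gene symbol. The files pair no interval with a transcript, a gene or a coding status, so each is called here an interval feature and is named by its position. Genes at these positions, and the probe sequences, were not analysed here.

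The RNA came from femoral growth plate cartilage of 12-day-old littermate mice, 4 labelled Cre and 4 labelled CreTW, with 1 array per mouse. The growth plate is the layer of cartilage that drives the lengthening of a long bone. Beyond these names the labels give no genotype. From what is known of the study, both groups carry a Cre recombinase active in cartilage, and in CreTW mice it also switches on a mutated Twinkle, which unwinds mitochondrial DNA for its replication. The Cre recombinase is thus shared by both groups, and an array from mice without it was not analysed here. The series title gives the question, which is how loss of the respiratory chain in cartilage relates to poor growth.

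Array features of this kind are in common use for long noncoding RNAs, transcripts that are spliced and polyadenylated like messenger RNAs but hold no long reading frame. Many lie between protein-coding genes, are transcribed at low levels and are restricted to few cell types, and some act on the expression of neighbouring genes. Where a transcript's strand was not known when an array was designed, a probe was often placed on each strand, so that 1 of the 2 can be blank.

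Signals are given as the log2 of the scanner's processed signal minus the array's 75th percentile over all non-control probes, so that a value of 0 is at that percentile. Differences are CreTW minus Cre. They were tested over all 23105 features with limma and Benjamini-Hochberg adjustment, a feature being called at an adjusted p under 0.05. A share of 45.4% to 57.9% of all non-control probes was well above background on an array, against 30.6% to 47.4% of the interval probes, with the lowest interval share on CreTW replicate 2 and the highest on CreTW replicate 4. All 14 of 14 chondrocyte marker genes were measured. Their summed signal, in multiples of the 75th percentile, was 2651 to 4424 in Cre and 2685 to 3469 in CreTW, and 0 of the 14 were called. All 20 of 20 skeletal muscle markers were measured, and all 20 differences were positive, from 0.31 to 5.47. Their median was 3.56, an 11.8-fold higher signal in CreTW, larger than that of any other marker list here. An unadjusted p under 0.05 was met by 16 of the 20, and 1, Cox6a2, was called. Their summed signal, to which Tnni2 contributed with a difference of 0.31, was 37.4 to 108 in Cre and 50.7 to 692 in CreTW. The 9 of 9 perichondrium, tendon and fibroblast markers summed to 182 to 249 in Cre and 270 to 359 in CreTW, ranges that did not overlap, with 9 of 9 differences positive, 4 at an unadjusted p under 0.05 and 0 called. The osteoclast markers, 9 of 10 measured and 0 called, summed to 424 to 1191 in Cre and 279 to 1031 in CreTW. All 9 differences were negative, from -1.03 to -0.62, and 0 had an unadjusted p under 0.05. The 9 osteoblast markers were also all lower in CreTW, from -0.62 to -0.05. So were the 4 measured of 8 erythroid markers, from -0.65 to -0.58, and none of either list was called. The part of these cell types in the differences described here was not tested beyond the fits with a marker score that are given beside the results.

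Among the 1636 interval features 3 were lower in CreTW and 0 were higher. Of all 23105 features, 0.346% were called, 0.229% higher and 0.117% lower. The largest of the 3 differences was a loss of signal on the F strand of a 7.3 kb interval of chromosome 5, and the other 2 intervals lay on chromosomes 4 and 14. All 3 were well above background on all 8 arrays and had 1 probe each. In none of the 3 did the genotypes overlap, which adds no support, as the 3 were picked by p in the same comparison. Over all features 6.7% did not overlap. In tissue RNA, fewer cells that make a transcript and less of it per cell cannot be told apart.

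The chromosome 5 feature, chr5:35975265-35982561_F, spans 7297 bp. Its log2 signal was 3.17, 4.30, 3.55 and 4.54 on the Cre arrays and 0.03, -0.12, 0.23 and 0.0035 on the CreTW arrays. Every CreTW array lay near the 75th percentile of its own array, and every Cre array lay far above it. The means were 3.89 ± 0.64 (SD, n = 4) in Cre and 0.04 ± 0.15 (SD, n = 4) in CreTW. The difference was -3.86 ± 0.28 (SE), a 14.5-fold lower signal (limma, adjusted p = 0.0023). It was about the same on both rows of the slide, each of which held 2 arrays of each genotype, at -3.78 in row 1 and -3.93 in row 2. The feature was called in all 8 fits that left out 1 array, with adjusted p of at most 0.0158. With the skeletal muscle marker score as a covariate the difference was -3.59 and was not called (limma, adjusted p = 0.104). In that fit 2 of all 23105 features were called.

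The R strand of the same 7297 bp interval, chr5:35975265-35982561_R, also had a probe well above background on all 8 arrays. Its log2 signal was 3.90, 3.95, 3.73 and 3.98 in Cre and 3.54, 3.19, 3.37 and 3.24 in CreTW. All 4 CreTW arrays lay under all 4 Cre arrays here too, but by far less. The difference was -0.56 ± 0.10 (SE), which was not called (limma, adjusted p = 0.102). It was called with normexp background correction (-0.52, limma, adjusted p = 0.0272) and with a trended, robust prior (-0.56, limma, adjusted p = 0.0277). The gap between the 2 strands' differences, 3.30, was the largest among the 196 intervals measured on both strands. The 2 probes are on opposite strands, and whether they read separate transcripts was not tested.

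The chromosome 4 feature, chr4:141527564-141547339_F, spans 19776 bp. Its log2 signal was 4.55, 4.63, 4.31 and 4.54 in Cre and 2.92, 2.66, 3.27 and 2.85 in CreTW. All 4 Cre arrays stood well above all 4 CreTW arrays. With means of 4.51 ± 0.14 (SD, n = 4) and 2.93 ± 0.26 (SD, n = 4), the difference was -1.58 ± 0.14 (SE), or 2.99-fold lower in CreTW (limma, adjusted p = 0.0035). It was -1.80 in slide row 1 and -1.36 in slide row 2, and the feature was called in 8 of 8 fits without 1 array. With the muscle score as a covariate it was -1.45 and was not called (limma, adjusted p = 0.171). No other interval feature lay within 10 kb of it.

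The chromosome 14 feature, chr14:30758342-30759669_R, is the shortest of the 3 at 1328 bp and had the lowest signal. It read -1.03, -0.84, -1.26 and -0.52 in Cre against -2.80, -2.19, -2.59 and -2.05 in CreTW. The groups did not overlap, but the arrays of each genotype spread widely. The means were -0.91 ± 0.31 (SD, n = 4) and -2.41 ± 0.35 (SD, n = 4), and the difference was -1.50 ± 0.21 (SE), or 2.82-fold lower (limma, adjusted p = 0.0258). The sign was negative in every fit run, from -1.66 with the osteoclast score to -0.66 with normexp background correction, but the call was not kept in every fit. It was kept in 2 of the 8 fits without 1 array, those without Cre replicate 3 and without CreTW replicate 4. Without Cre replicate 1, 2 or 4 or CreTW replicate 1, 2 or 3 the adjusted p was 0.0518 to 0.103 (limma). It was also lost with no filter on dim probes (adjusted p = 0.136), with the slide row as a block (0.0616), with the muscle score (difference -1.57, 0.527) and with the osteoclast score (difference -1.66, 0.053).

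**Figure D1:**
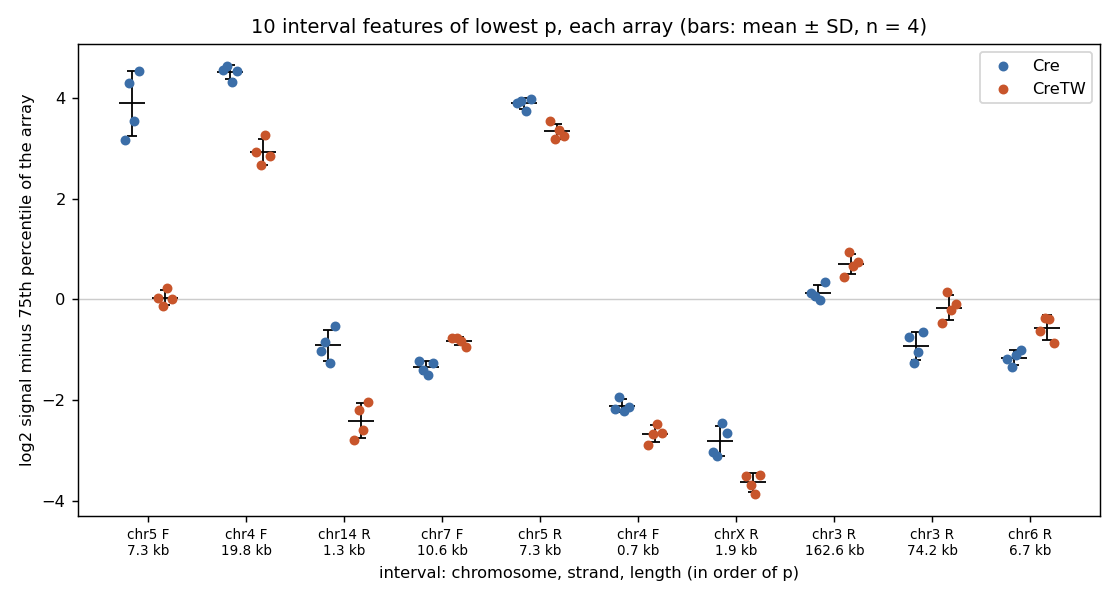
Log2 signal minus the 75th percentile of the array (y axis) on each of the 8 arrays for the 10 interval features of lowest p, in order of p and labelled by chromosome, strand and length, with Cre in blue and CreTW in orange; horizontal bars are means and error bars are ± 1 SD (n = 4). The groups do not overlap in any of the 10, which adds no support, as the 10 were picked by p in the same comparison. Over all features tested, 6.7% did not overlap. The first 3, with differences of -3.86, -1.58 and -1.50, are those past an adjusted p of 0.05.

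Besides the 3 called features and the R strand of the chromosome 5 interval, 6 more made up the 10 of lowest p, and none of the 6 was called. The first of them in order of p was chr7:13533925-13544525_F, a 10601 bp interval that read -1.21, -1.40, -1.50 and -1.27 in Cre and -0.77, -0.77, -0.82 and -0.95 in CreTW. Every CreTW array lay above every Cre array. The difference was 0.52 ± 0.09 (SE), the lowest adjusted p of an interval feature with a positive difference (limma, adjusted p = 0.0879), and 0.54 and 0.50 within slide rows 1 and 2. Lower in CreTW were chr4:3746945-3747603_F at -0.56 ± 0.11 and chrX:130742592-130744509_R at -0.82 ± 0.16 (SE; limma, adjusted p = 0.13 for each). The chromosome X feature was dim, well above background on 3 Cre arrays and 1 CreTW array. Its difference was -0.46 with each dim array raised to its lowest clearly detected signal, an alternative added after seeing the data. With normexp background correction the difference of this feature was -0.22. The remaining 3 were chr3:127039311-127201919_R and chr3:127037711-127111912_R, which share a locus described further on, and chr6:47595238-47601893_R at 0.60 ± 0.14 (SE; limma, adjusted p = 0.191).

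Across all 1636 interval features the differences were centred on 0. Their median was -0.0026, against -0.0075 over all features tested, with 827 below 0 and 809 above. From the 5th to the 95th percentile they ran from -0.43 to 0.35, and over all features from -0.42 to 0.38. An unadjusted p under 0.05 was met by 115 interval features (7.03%), 53 higher and 62 lower, where the share over all features was 10.7%, with 5.93% higher and 4.8% lower. The genotypes did not overlap in 62 interval features (3.79%), 29 higher and 33 lower, against 6.7% of all features, 3.89% higher and 2.81% lower. Both shares of the interval features were thus below those of the whole array. The order of the first was turned within slide row 2, where 7.21% of interval features and 5.26% of all features had an unadjusted p under 0.05, and the shares were near each other with the muscle score in the fit, at 5.01% and 5.37%. Over the alternatives this share of the interval features ran from 3.30% with no filter to 11.0% within slide row 1. It was 5.44% with the interval features fitted alone. The spread of the interval features was also wider: the median SD within genotypes was 0.260 against 0.190, and the median SE of a difference was 0.168 against 0.131.

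The interval probes were dim as a group. The median of their mean signal was -1.38, with quartiles at -2.43 and 0.33, against a median of 0.12 over all features. A mean above the 75th percentile of the array was found for 462 of 1636 (28.2%), and for 51.7% of all features. Signals of different probes are not amounts of transcript, so these shares describe the probes. Between 1241 interval features, on CreTW replicate 2, and 1632, on CreTW replicate 4, were well above background on an array. The median over interval features ran from -1.45 to -1.26 on the 8 arrays, and the genotypes overlapped in it.

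Split by signal into 4 equal classes of 409, the interval features had fewer low p-values than the other features in each class. An unadjusted p under 0.05 was met by 7.09%, 6.11%, 6.60% and 8.31% of them from the dimmest class to the brightest. The other features in the same signal bounds had 11.7%, 11.4%, 11.3% and 10.6%. The gap was thus present in each of the 4 classes and narrowest in the brightest. In that class the sets were not matched in signal, with medians of 1.83 for interval features and 2.25 for the others. The median SD within genotypes fell with signal in both sets, from 0.398 to 0.176 for interval features and from 0.392 to 0.135 for the others. In the 2 dimmer classes the SDs of the sets were close, at 0.398 and 0.392 in the first and 0.284 and 0.280 in the second. Of the 3 called interval features, 1 was in the second class and 2 were in the brightest.

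**Figure D2:**
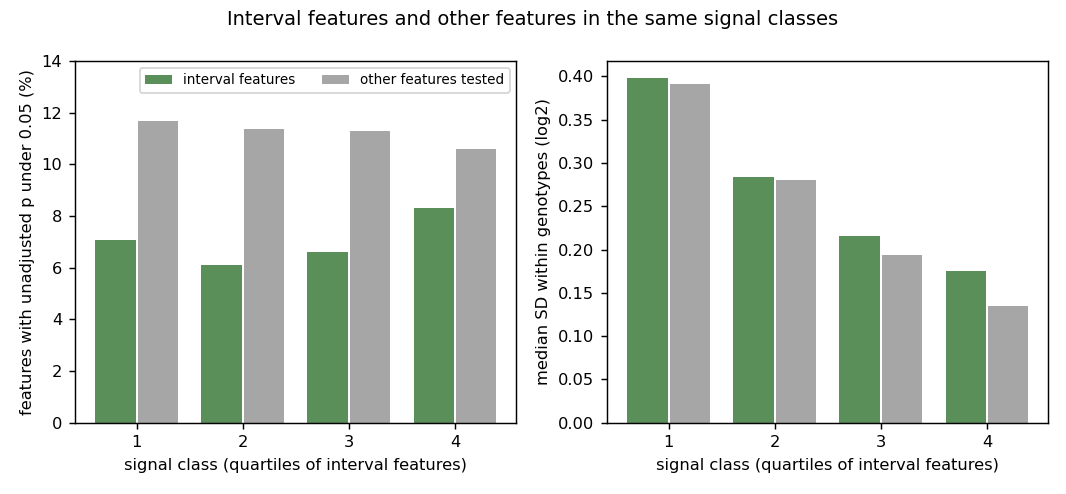
Interval features (green) and other features tested (grey) in 4 signal classes bounded by the quartiles of the interval features, class 1 being the dimmest; the left panel gives the percentage with an unadjusted p under 0.05 and the right panel the median SD within genotypes in log2 units. The green bars lie below the grey in every class on the left (7.09% against 11.7% in class 1, 8.31% against 10.6% in class 4), while on the right both sets fall from class 1 to class 4.

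A log2 difference of at least 1 in size was found for 10 interval features (0.611%), 4 higher and 6 lower, against 1.22% of all features. The count depended on how dim signals were treated. With each dim array raised to its lowest clearly detected signal, an alternative added after seeing the data, 5 of the 10 fell under 1 in size, and with normexp background correction 7 did. Besides the 3 called ones 7 are named after their values were seen. Of the 7, 6 were dim, and none of those 6 was well above background on all 8 arrays. The largest rise, chr6:126766225-126771309_F, read -3.44, -4.28, -3.59 and -3.60 in Cre and -2.39, -3.09, -0.12 and -2.72 in CreTW, well above background on 1 and 3 arrays. The genotypes did not overlap, CreTW replicate 3 stood far above the rest, and the difference of 1.64 ± 0.59 (SE) was not called (limma, adjusted p = 0.373). It was 1.30 with dim arrays raised and 0.48 with normexp. The differences of chr10:69679644-69682458_F, at 1.53 ± 0.67, and chr7:111526943-111545093_R, at 1.07 ± 0.52 (SE), were not called either, and in both the genotypes overlapped. They were 0.82 and 0.32 with dim arrays raised.

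On the lower side, chr15:92197603-92208534_F read -3.01, -2.62, -2.77 and -2.44 in Cre and -2.82, -4.78, -4.32 and -4.84 in CreTW. The other 3 CreTW arrays were far below Cre, while CreTW replicate 1 was within the Cre range. The difference was -1.48 ± 0.41 (SE; limma, adjusted p = 0.261), and without CreTW replicate 1 it was -1.94 and was called (limma, adjusted p = 0.0149). Its probe was well above background on 1 CreTW array, so that its low values rest on signals near background. The same holds for chr13:56851404-56851796_R, at -1.20 ± 0.28, and chr7:106525007-106525661_R, at -1.03 ± 0.31 (SE), each above background on 1 CreTW array and neither called. With dim arrays raised the 3 differences were -0.54, -0.60 and -0.83, in the same order.

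**Figure D3:**
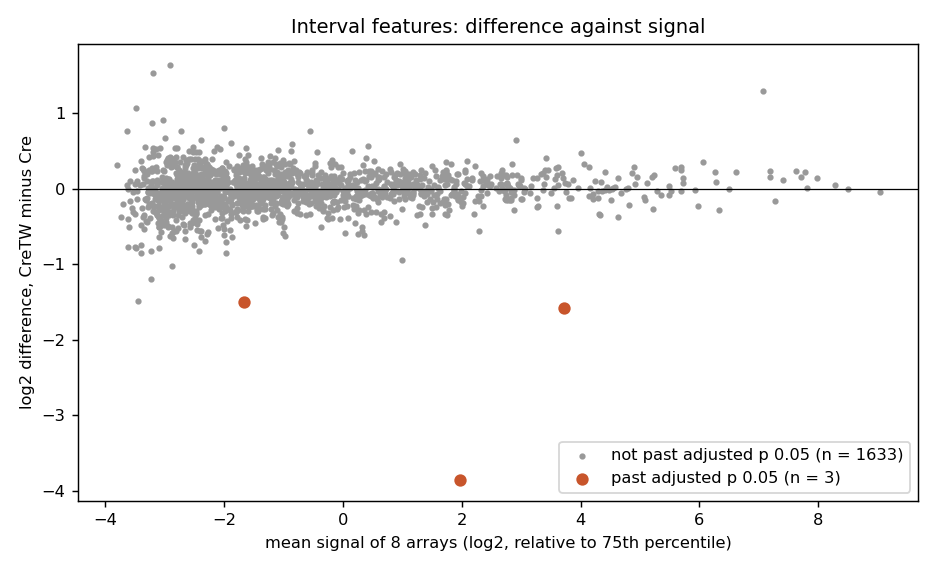
Log2 difference, CreTW minus Cre (y axis), against the mean log2 signal over 8 arrays relative to the 75th percentile (x axis) for 1636 interval features, the 3 past an adjusted p of 0.05 in orange and the others in grey. The grey points narrow around 0 as the signal rises, and the 3 orange points lie at -3.86, -1.58 and -1.50.

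The tenth was chr2:31714946-31716972_F, which differed from the others in having a high signal. It read 3.37, 7.71, 7.29 and 7.32 in Cre and 7.85, 7.94, 7.73 and 7.34 in CreTW. One array, Cre replicate 1, was far below the other 7, and the difference of 1.29 ± 0.87 (SE) was not called (limma, adjusted p = 0.624). Without Cre replicate 1 the difference was 0.28.

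The 5 interval features of highest signal were not called, and in each the genotypes overlapped. The first, chr14:78924115-78938125_F, read 8.92, 9.24, 8.95 and 9.12 in Cre and 9.18, 9.09, 9.06 and 8.77 in CreTW. The genotypes overlapped throughout, and the difference was -0.04 ± 0.12 (SE). The differences of the other 4 were 0.0039 ± 0.14 for chr6:116092274-116144199_F, 0.05 ± 0.10 for chr12:73838608-73862621_R, 0.14 ± 0.09 for chr11:22681800-22707775_R and 0.01 ± 0.11 for chr6:83368261-83407280_F (SE, n = 4 per genotype). Adjusted p over the 5 was 0.612 to 0.994 (limma). The direction of 4 of the 5, all but the chromosome 11 feature, flipped under at least 1 alternative.

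Of the 4061 intervals, 1636 (40.3%) passed the signal filter, 619 were well above background on 1 to 3 arrays and 1806 (44.5%) on none. Among the other features of the array 51.7% passed and 37.5% were on none. The filter kept 1167 intervals on all 8 arrays. At its edge, 89 intervals were well above background on exactly 4 arrays, with a median signal of -3.26 and a median difference of -0.05, and 102 on exactly 3 arrays, with -3.44 and -0.05. No interval feature was at background on every array of a genotype. More Cre than CreTW arrays were above background for 194 features and more CreTW than Cre arrays for 122. CreTW replicate 2 had the fewest interval features above background of the 8 arrays, and also the lowest share of all features tested, 86.7%. Its part in these counts was not tested, and the same counts over all features were not made.

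Longer intervals passed more often. The share was 34.2% of 1405 intervals under 5 kb, 40.9% of 1445 from 5 to 20 kb and 46.7% of 1211 over 20 kb. Lengths ran from 62 to 538251 bp with a median of 10251 bp. The genotype difference did not follow length: the median was 0.0066, -0.01 and -0.0014 in the 3 classes, each within the spread between replicates, and an unadjusted p under 0.05 was met by 35 of 480 (7.29%), 36 of 591 (6.09%) and 44 of 565 (7.79%). Of the called features 2 were in the middle class and 1 was under 5 kb. Over 20 kb no interval feature was called and none differed by 1 or more in size, the range being -0.85 to 0.88.

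The strands were alike in these counts. Of F intervals 807 of 2068 (39.0%) passed, and of R intervals 829 of 1993 (41.6%). The median difference was 0.0089 on F and -0.01 on R, both smaller than the SDs of those medians between arrays of a genotype, 0.0659 and 0.0623. An unadjusted p under 0.05 was met by 49 F features (6.07%) and 66 R features (7.96%), and 2 and 1 were called.

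More intervals passed the signal filter on 1 strand alone than on both. Of 832 intervals with probes on both strands, 196 (23.6%) passed on both, 173 on F alone, 208 on R alone and 255 on neither. Among the 196, an unadjusted p under 0.05 was met on both strands by 2, on 1 strand by 25 and on neither by 169. The 2 were the chromosome 5 interval above and chr14:67585234-67596823, whose F strand was higher by 0.29 ± 0.09 and whose R strand by 0.49 ± 0.20 (SE; limma, adjusted p = 0.338 and 0.44). Across the 196 intervals, which share the 8 arrays, the differences of the 2 strands correlated at r = 0.18, and at r = 0.10 without the chromosome 5 interval. As a yardstick, 2 probes of 1 interval and strand correlated at r = 0.31 over 89 intervals, with a median gap of 0.115 between their differences. Overlapping intervals on the same strand correlated at r = 0.27 over 250 pairs, on opposite strands at r = 0.0074 over 219 pairs, and next neighbours over 100 kb apart at r = 0.0058 over 923 pairs. In the first 2 of these comparisons probes can read the same transcript, and the r are given as descriptions.

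**Figure D4:**
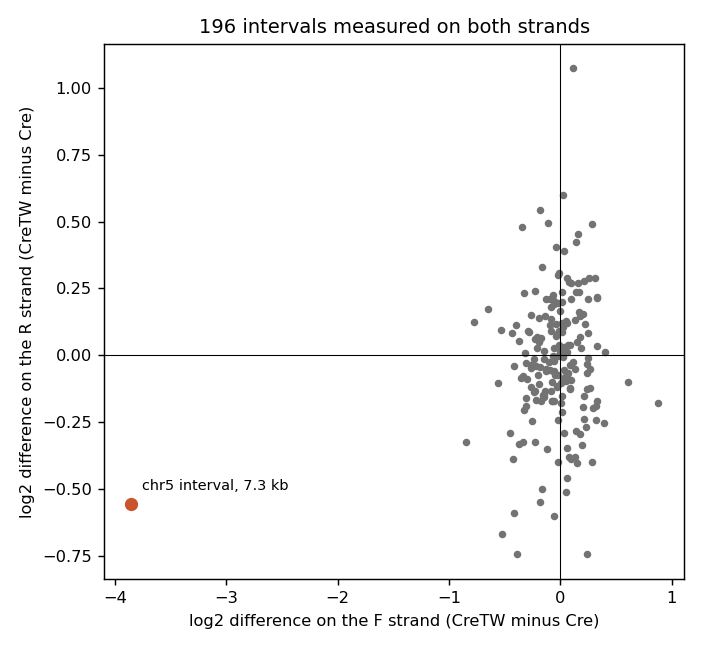
Log2 difference, CreTW minus Cre, of the R-strand feature (y axis) against that of the F-strand feature (x axis) for the 196 intervals measured on both strands, with the chromosome 5 interval of 7.3 kb in orange. The chromosome 5 interval lies at -3.86 on F and -0.56 on R, and the grey points form a cloud around 0 (r = 0.10 without it).

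All 20 chromosomes that carried intervals, 1 to 19 and X, had tested features, from 37 on chromosome 19 to 119 on chromosome 1. The share of intervals that passed ran from 33.3% on chromosome 13 to 48.4% on chromosome 17. Median differences ran from -0.05 on chromosome 16 to 0.05 on chromosome 7, each smaller than the SD of that median between arrays of a genotype. That SD is of single arrays and is wider than the SE of a difference between genotype means, so it is not a test. With 1 feature per locus, the brightest of intervals that overlap or lie within 10 kb on either strand, the medians ran from -0.07 on chromosome 17 to 0.09 on chromosome 7. Those of chromosomes 7, 17 and 18 (0.09, -0.07 and 0.06) were then larger in size than the same SDs, of 0.0663, 0.061 and 0.0506.

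Chromosome 7 had the highest share at an unadjusted p under 0.05, 10 of 71 (14.1%), of which 8 were higher in CreTW. The share was 7.03% over all interval features and 10.7% over all features tested. Chromosomes 3 and 13 had 9 of 83 each (10.8%), and chromosome 15 had the lowest share, 3 of 78 (3.85%). On chromosomes 9 and 18 all 4 such features were lower. Counting 1 feature per locus, chromosome 7 had 9 at an unadjusted p under 0.05 among 42 loci. Over all chromosomes the same count was 29 of 530 loci whose brightest feature was on F, and 40 of 540 on R. None of the chromosome 7 features was called, and the counts carry no test.

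**Figure D5:**
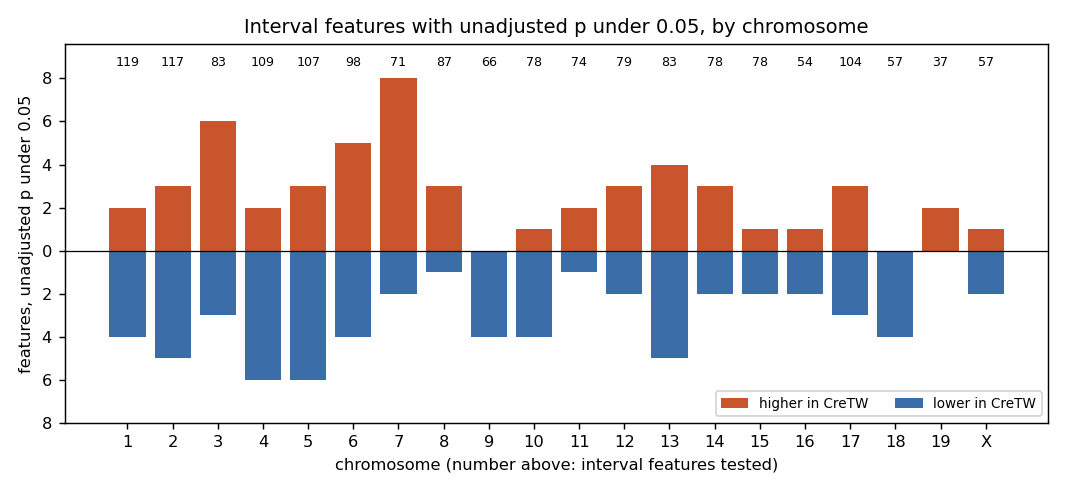
Number of interval features with an unadjusted p under 0.05 on each chromosome (x axis), higher in CreTW above the zero line in orange and lower below it in blue, with the number tested printed above each bar. Chromosome 7 has 8 higher and 2 lower of 71, and chromosomes 9 and 18 have 4 lower and 0 higher.

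The 1636 features formed 1070 such loci, 692 of 1 feature, 263 of 2 and 115 of 3 or more, up to 9. At least 1 feature with an unadjusted p under 0.05 was in 106 loci, and at least 2 in 7 loci. These 7 are named after their values were seen, and features of a locus on the same strand can read the same transcript. Apart from the chromosome 5 interval with the called F strand, no feature of the 7 was called.

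The locus chr3:126989696-127201919 held 4 features, 3 on R and 1 on F. The R features were higher in CreTW by 0.50 ± 0.15, 0.76 ± 0.17 and 0.57 ± 0.13 (SE), and the F feature differed by -0.11 ± 0.09. For chr3:127037711-127111912_R the signal was -0.74, -1.26, -1.04 and -0.65 in Cre and -0.48, 0.14, -0.22 and -0.09 in CreTW. The genotypes did not overlap in any of the 3 R features, and the lowest adjusted p was 0.179 (limma). With the muscle score as a covariate the F feature was at 0.02, and the R features kept a positive sign in every fit run.

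The locus chr5:22801058-22939737, apart from the called chromosome 5 interval, held 5 features. On R, 3 lay lower in CreTW without overlap, with differences of -0.40 ± 0.11, -0.59 ± 0.14 and -0.56 ± 0.14 (SE). For chr5:22887983-22939658_R the signal was 0.06, 0.59, 0.30 and 0.41 in Cre and -0.19, 0.00022, -0.41 and -0.39 in CreTW. The other R feature within the same stretch, chr5:22928221-22939127_R, was at 0.06 ± 0.13, and the F feature was at 0.28 ± 0.13 with overlapping groups. The R features of the locus thus did not all move together, and none was called (limma, lowest adjusted p = 0.206).

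Of the other loci, the 3 features of chr10:6480075-6603900 were all lower, from -0.59 to -0.37, and the 2 of chr13:104591573-104599048 were at -0.63 and -0.78. Those 2 were dim, well above background on 4 and 3 Cre arrays and on 2 and 1 CreTW arrays. With dim arrays raised their differences were -0.49 and -0.35, and with normexp -0.20 and -0.14. The 3 of chr14:67585234-67596823 were all higher, from 0.19 to 0.49. The 4 of chr14:33895294-34003394 were mixed, from -0.35 to 0.48. Adjusted p was at least 0.293 in these 4 loci (limma).

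The largest locus, chr12:110842154-110988678, held 9 features over 146.525 kb. All 9 were positive, from 0.17 to 0.29 with a median of 0.21, and none had an unadjusted p under 0.05, the lowest being 0.161. The median deviation of its features from their own means was -0.26, -0.30, -0.05 and 0.25 on the Cre arrays and 0.18, 0.45, -0.36 and 0.15 on the CreTW arrays. The arrays of the genotypes thus overlapped widely. The 9 features were read on the same arrays, and those on the same strand can share a transcript, so they are not 9 separate measurements.

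Named long noncoding RNAs on the same arrays were taken from a list of 43 symbols, of which 29 were measured. None was called, and 4 (13.8%) had an unadjusted p under 0.05, all higher, where 10.7% of all features had one. Of the 29 differences 22 (75.9%) were positive with a median of 0.10, against 48.4% of all features and a median of -0.0075. The 4 of highest signal were H19, an imprinted transcript of fetal tissues, at 0.16 ± 0.16 (SE), Meg3, a maternally expressed imprinted transcript, at 0.28 ± 0.21, Norad, a cytoplasmic RNA that binds Pumilio proteins, at 0.12 ± 0.10, and Snhg8, a small nucleolar RNA host gene, at 0.28 ± 0.10. Their adjusted p was 0.735, 0.666, 0.694 and 0.381 (limma, n = 4 per genotype). The differences of H19 and Meg3 were negative in row 2 of the slide alone and when the osteoclast score entered the fit.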

How the data were processed

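Each array held RNA of 1 mouse (100 ng, 1-colour, Cy3), per the labels; nothing further on how the 4 mice per genotype were sampled is stated. Per the file headers, the intensity values are processed signals, background subtracted, from Agilent Feature Extraction 11.5.1.1 with build mm9. Per the labels, the authors used GeneSpring 14.9. Their deposited log2 table matched the log2 processed signal at r = 1 on each array, with a constant per array, and was an alternative. Its medians were -3.03 to -2.93, its genes were not centred, and 1-colour values have no direction to settle.

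Spots of a probe were averaged without outlier flags. Log2 signals were scaled to the array's 75th percentile (144 to 187 scanner units) and filtered on at least 4 of 8 arrays well above background, and 0 probes were saturated. Symbols came from a RefSeq table (GRCm38.p6, names alone): of 56605 probes, 32994 matched 1, 0 several and 23611 none. The fit used limma 3.58.1 in R 4.3.3 over 23105 features (6 residual degrees of freedom, 2.52 prior). All arrays shared 1 slide and 1 scan time, with 2 slide rows as batches. The script was tested on simulated data. The members, marker lists, alternatives and loci were chosen with earlier results of these data known.

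Named were interval features past adjusted p 0.05, those of lowest p up to 10, the 5 of highest mean signal, other features within 10 kb of a called one, and the 4 brightest listed long noncoding RNAs, as none of them passed; others are said to be named after their values were seen. Alternatives were the array median, quantile normalization, normexp (offset 50, on the median spot signal), the deposited table, no filter, a filter on all 8 arrays, mean of probes, replicate block, slide row as a block or alone, eBayes trend and robust, array weights, muscle or osteoclast score as a covariate, interval features fitted alone, leaving out each array and, added after seeing the data, raising dim arrays to their lowest clearly detected signal. The number of arrays limits the precision.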

Additional observations from a re-analysis of the deposited data

Results flagged for a closer look

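In 78 groups of 4 arrays examined over the named features, 1 held an array far from the other 3, where chance gives about 1 in 20. For chr2:31714946-31716972_F, Cre replicate 1 was at 3.37, and the nearest of the other Cre arrays was at 7.29 and the farthest at 7.71. The gap was 0.903 of the group's range, above Dixon's critical value for 4 samples.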

How the results depend on the processing

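The count of interval features called lower was 3 and fell to 0 within slide row 1, within slide row 2 and in the fit with the muscle score; 0 of all features were called within either row and 2 with the muscle score. It was 2 to 4 under the other alternatives, and 2 to 3 without 1 array. The count called higher was 0 throughout. The median difference was 0.093 with the muscle score, where the median of all features was 0.05, and -0.03 to 0.03 without 1 array. With the osteoclast score 3 were called, of which 2 were called originally. The other, chr11:112898724-113062945_R, was at -0.98 (limma, adjusted p = 0.0417). Without the score it was at -0.38 and was not called, and the differences of its 3 probes above the filter ran from -0.38 to 0.33. With the replicate block 2 interval features and 12 of all features were called. The chromosome 4 feature was the one lost (limma, adjusted p = 0.08). Deviations of same-numbered arrays correlated at -0.0123, -0.1, 0.31 and -0.03, so the numbers were not taken as pairs, and not every array correlated best with its own number.

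Signs turned for 7 interval features and 2 named transcripts, none called. chr6:116092274-116144199_F was at -0.0075 with the array median, -0.046 with quantile normalization, -0.018 with normexp, -0.13 in row 2, -0.093 with array weights, -0.094 with the osteoclast score and -0.062 to 0.113 without 1 array. chr6:83368261-83407280_F was at -0.034 with quantile normalization, -0.053 in row 2, -0.078 with array weights, -0.034 with the osteoclast score and -0.036 to 0.098 without 1 array. chr14:78924115-78938125_F was at 0.049 in row 1, 0.117 with the muscle score and -0.088 to 0.048 without 1 array. chr12:73838608-73862621_R was at -0.021 with array weights. With the muscle score chr10:69679644-69682458_F was at -0.39 and chr3:126989696-127112471_F at 0.020. chr5:22928221-22939127_R was at -0.11 with the muscle score, -0.018 with the osteoclast score and -0.022 to 0.154 without 1 array, below 0 without CreTW replicate 2. H19 was at -0.081 in row 2 and -0.060 with the osteoclast score, and Meg3 at -0.136 and -0.055. The cause was not tested. With 4 arrays per genotype and interval signals often near background, differences may go uncalled. Among the named interval features the largest difference not called was 1.64, that of chr6:126766225-126771309_F. CreTW replicate 3 stood far above the rest there, and the difference was 0.48 with normexp. Why it was not called was not tested.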

Other observations

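Where an interval and strand had more than 1 probe above the filter, the differences of its probes varied. Of 89 such features the median range over probes was 0.124, and 9 had a range over 0.5. The median size of a difference was 0.135 over all 1636 interval features, a wider set, and was not taken over the 89 alone. The first 2 probes had the same sign in 64 of the 89. The 8 features of chr13:28477490-28985604 had a median difference of -0.04 and ran from -0.27 to 0.30, and the 8 of chr8:122920901-123008463 had a median of 0.01 and ran from -0.37 to 0.28. No feature of either locus had an unadjusted p under 0.05.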
